A study of Homo sapiens with 4 samples.

Results

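The strongest cohesin loops of a human lymphoblastoid line are described here: 336 chromatin loops that were listed in all 4 libraries of the study with at least 75 contacts in every one. They were taken from 9529 loops on chromosomes 1 to 22 and X that all 4 libraries listed, out of 41846 listed in any library. The members were therefore 3.53% of the shared loops, and the contact counts of all 4 libraries chose them, so their levels are a description and have no test.

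The cells were GM12878, a B lymphoblastoid line immortalised with Epstein-Barr virus, although the sample titles name another lymphoblastoid line. Contacts held by SMC1 were mapped by HiChIP, in which chromatin that lies close together is ligated and fragments bound by a chosen protein are then precipitated and sequenced. The APH library came from cells given 0.4 µM aphidicolin, an inhibitor of replicative DNA polymerases, for 18 h, and the DMSO library from cells given its solvent. The HU library came from cells given 0.2 mM hydroxyurea, which depletes deoxynucleotides by blocking ribonucleotide reductase, for 18 h, and the H2O library from cells given water. There was 1 library per treatment, so every ratio compares libraries and has no replicate check, and the H2O over DMSO ratio shows how far the undrugged libraries lay apart. The list totals over shared loops were 376948 contacts for APH, 300320 for DMSO, 322048 for HU and 325634 for H2O.

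SMC1 is a subunit of cohesin, a ring-shaped complex that reels chromatin into loops. Extrusion usually stops where the DNA-binding protein CTCF sits on the genome, so the ends of strong loops often mark the borders of an insulated stretch of DNA. Genes and their enhancers inside such a stretch meet each other more often than they meet DNA outside it. In lymphoblastoid cells many of these loops were known before from contact maps, and their anchors are often occupied by CTCF together with cohesin.

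A loop is a pair of anchors, each a bin of 5 kb, and its span is the distance between the starts of both bins. Promoter sequences in member anchors are shown because a start site within a loop end places a gene's control region at the foot of the loop. The windows run from 250 bases before to 50 bases after a RefSeq start, on GRCh38.p14, which is the assembly also called hg38, and are written 5′ to 3′ on the gene's strand. Capitals mark a short CTCF-like motif, CNAGNNGGC, or its reverse complement GCCNNCTNG, found by searching both strands. The first 2 windows stand at the feet of loops among the 12 strongest places, UBE2L6 at a loop with one of the highest APH over DMSO ratios, PPCDC and C15orf39 at facing ends of a loop with one of the lowest, and TNFAIP3 in an anchor on a gene of the NF-kB list.
FMNL3 (chr12:49707356-49707655, minus strand): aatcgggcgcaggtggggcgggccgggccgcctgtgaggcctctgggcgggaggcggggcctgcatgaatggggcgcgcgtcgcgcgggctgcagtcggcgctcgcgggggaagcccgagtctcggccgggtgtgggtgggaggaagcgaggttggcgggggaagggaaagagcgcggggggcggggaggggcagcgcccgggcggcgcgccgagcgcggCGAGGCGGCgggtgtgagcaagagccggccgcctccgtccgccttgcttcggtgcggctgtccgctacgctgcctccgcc
WDR18 (chr19:982678-982977, plus strand): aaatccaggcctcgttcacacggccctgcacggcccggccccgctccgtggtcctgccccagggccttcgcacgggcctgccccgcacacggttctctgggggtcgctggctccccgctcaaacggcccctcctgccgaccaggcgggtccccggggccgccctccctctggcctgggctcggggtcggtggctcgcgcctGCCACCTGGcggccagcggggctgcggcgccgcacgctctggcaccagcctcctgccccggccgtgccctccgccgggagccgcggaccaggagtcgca
UBE2L6 (chr11:57567886-57568185, minus strand): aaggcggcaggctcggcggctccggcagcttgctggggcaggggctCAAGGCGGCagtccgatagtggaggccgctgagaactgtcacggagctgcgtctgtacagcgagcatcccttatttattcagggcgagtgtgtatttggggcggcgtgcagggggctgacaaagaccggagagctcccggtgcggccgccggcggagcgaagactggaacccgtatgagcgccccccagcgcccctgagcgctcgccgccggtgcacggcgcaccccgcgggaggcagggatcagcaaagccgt
PPCDC (chr15:75043036-75043335, plus strand): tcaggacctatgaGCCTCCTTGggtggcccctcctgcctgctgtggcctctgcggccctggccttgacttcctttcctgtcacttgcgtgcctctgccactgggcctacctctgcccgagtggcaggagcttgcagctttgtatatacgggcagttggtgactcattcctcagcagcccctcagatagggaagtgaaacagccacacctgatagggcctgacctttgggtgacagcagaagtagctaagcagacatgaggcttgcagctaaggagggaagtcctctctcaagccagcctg
C15orf39 (chr15:75201632-75201931, plus strand): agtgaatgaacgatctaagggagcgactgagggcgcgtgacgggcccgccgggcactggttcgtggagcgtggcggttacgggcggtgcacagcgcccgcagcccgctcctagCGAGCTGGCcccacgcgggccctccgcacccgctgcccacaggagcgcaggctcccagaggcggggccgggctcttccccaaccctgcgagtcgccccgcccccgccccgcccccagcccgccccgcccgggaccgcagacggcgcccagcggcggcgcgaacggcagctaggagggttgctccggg
TNFAIP3 (chr6:137867009-137867308, plus strand): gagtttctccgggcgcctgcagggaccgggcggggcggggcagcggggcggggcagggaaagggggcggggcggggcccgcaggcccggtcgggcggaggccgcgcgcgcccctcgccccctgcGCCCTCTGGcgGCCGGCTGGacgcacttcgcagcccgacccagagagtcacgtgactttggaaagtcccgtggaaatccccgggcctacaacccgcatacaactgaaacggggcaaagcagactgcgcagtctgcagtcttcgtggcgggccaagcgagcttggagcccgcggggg

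The motif was in 42 of the 116 promoter windows in member anchors, or 36.2% (95% exact binomial interval 27.5% to 45.6%). It was in 34.2% (32.0% to 36.3%) of windows in anchors of the other shared loops, in 27.4% (26.8% to 28.0%) of windows in no shared anchor and in 28.0% of all 22132 protein-coding windows. The member interval holds the share at other shared anchors and that of all protein-coding windows, and starts just above that of windows in no shared anchor. By these letters the member promoters were thus not distinguishable from other loop-end promoters or from protein-coding promoters as a whole. The 116 windows belong to 93 genes and some overlap or coincide, while the interval treats windows as independent. A match is a description and not a binding site. The TNFAIP3 window holds 2 matches close together, both to the reverse complement as printed.

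The members carried 12.5% of shared contacts in APH, 12.4% in DMSO, 12.3% in HU and 12.2% in H2O. Their counts had a lowest value of 75, a median of 131 and a highest value of 388 in APH. In DMSO the lowest, median and highest counts were 75, 102 and 271, in HU 75, 110 and 322, and in H2O 75, 109 and 258. The median of the other shared loops was 31 in APH, 24 in DMSO, 26 in HU and 27 in H2O. A deposited column taken as the count expected from the caller's background model gave a median of observed over expected of 11.04 in APH, 10.7 in DMSO, 10.8 in HU and 10.8 in H2O for the members. For the other shared loops it was 6.85, 6.71, 6.58 and 6.66 in the same order of libraries. The members thus stood out from their modelled background as well as in raw contacts, although the observed count enters both measures.

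The members lay in 314 separate places, where loops whose anchors fall within 1 bin of each other count as 1 place. Of these, 294 places held 1 member, 18 held 2 and 2 held 3. Few anchor bins were shared by members: 32 of 639 served more than 1 member, and 62 members were joined to another member through such bins. Counted over all shared loops, the median was 3 loops at a member anchor bin and 1 at other anchor bins. One bin 1.895 kb from SELPLG, which encodes the selectin ligand PSGL-1, served 3 members of 45, 50 and 55 kb around TMEM119, with 503 contacts in APH, 408 in DMSO, 393 in HU and 417 in H2O. These 3 count as 1 place, so they can be 1 contact listed in neighbouring bins. The next by the number of shared loops at the bin were beside NPL, on PPARD, 12.9 kb from COX4I1 at the left foot of 2 loops around IRF8, and 13.5 kb from KCNIP1, with 2 members each. The members at NPL and those at PPARD were also 1 place each, while those at COX4I1 and KCNIP1 were 2 places each. A mark read as the local maximum of a cluster of called pairs was set in all 4 libraries for 84.5% of members (80.2% to 88.2%) and for 40.6% of the other shared loops (39.6% to 41.7%). A high count chose the members and also favours a local maximum, so this difference is a description and no test.

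The 12 places with the highest minimum count over the libraries are called the strongest places here. The first of them held a 55 kb loop on chromosome 1 (27605001 to 27665000) that encloses FGR, a Src family tyrosine kinase known to be induced by Epstein-Barr virus in B cells, with anchors 0.774 kb from AHDC1 and 1.06 kb from IFI6. It had 299 contacts in APH, 271 in DMSO, 268 in HU and 246 in H2O, and the intervals of its scaled ratios included no change for APH over DMSO and for HU over H2O. A 95 kb loop on chromosome 1 (23540001 to 23640000) encloses ID3, an inhibitor of E-protein transcription factors in lymphocyte development, and had 318 contacts in APH, 225 in DMSO, 256 in HU and 238 in H2O. A 60 kb loop on chromosome 19 (920001 to 985000) runs from KISS1R to WDR18 around ARID3A, a factor that raises immunoglobulin heavy chain transcription in B cells, and had 282, 238, 225 and 215 contacts in APH, DMSO, HU and H2O. In each of these 3 loops the most contacts were in APH, which also had the highest list total.

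SLAMF7, a receptor of activated B cells, plasma cells and natural killer cells, lay alone inside a 40 kb loop on chromosome 1 (160725001 to 160770000) with 223 contacts in APH, 190 in DMSO, 197 in HU and 203 in H2O. SEMA7A, a membrane-anchored semaphorin, lay alone inside a 55 kb loop on chromosome 15 with 205, 182, 176 and 173 contacts in the same libraries. ELK4, an ETS factor that partners serum response factor, lay inside a 65 kb loop from SLC60A1 to SLC45A3 with 218, 182, 178 and 179. In these 3 loops the log2 ratios of scaled counts lay between -0.16 and 0.04 in APH over DMSO and in HU over H2O.

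An 80 kb loop on chromosome 14 (22390001 to 22475000) had no protein-coding gene in or between its anchors. It encloses gene segments of the T cell receptor delta locus, among them TRDV2, TRDV3, TRDC and the TRDD and TRDJ segments, with 240 contacts in APH, 189 in DMSO, 180 in HU and 178 in H2O. This locus is used by gamma delta T cells, and the loop is listed here in a B cell line. RGS8, a regulator of G protein signalling, lay inside a 180 kb loop whose left foot is on RGS16, with 253 contacts in APH, 203 in DMSO, 171 in HU and 229 in H2O. HU was the lowest library there, and the HU over H2O log2 ratio of -0.41 had a 95% interval from -0.70 to -0.11. The other strongest places were at COXFA4L3, at GREB1, between PADI2 and PADI1, and at FMNL3 with PRPF40B, where counts ran from 180 to 388.

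**Figure D1:**
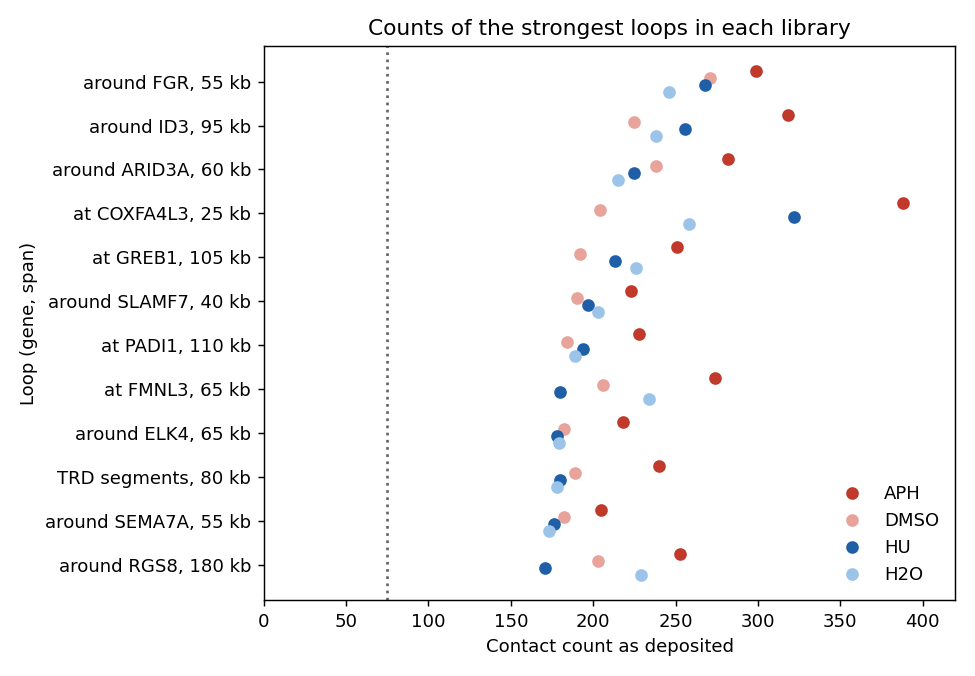
Contact counts as deposited (horizontal axis) of the loop with the highest minimum count in each of the 12 strongest places, 1 point per library, with the threshold of 75 dotted. All points lie between 171 and 388, and the widest gap between libraries is at COXFA4L3, with 388 in APH and 204 in DMSO.

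The members were short. Their median span was 75 kb (quartiles 40 and 125 kb, range 10 to 600 kb), and that of the other shared loops was 115 kb (quartiles 65 and 195 kb). Loops under 100 kb made up 64.3% of members (58.9% to 69.4%) and 41.8% of the other shared loops (40.8% to 42.8%), and loops of 250 kb or more made up 4.76% of members (2.75% to 7.62%) and 16.0% of the others (15.2% to 16.7%). Neither pair of intervals overlaps. Contacts fall with distance, and the modelled background moved with the choice: its median was 12.8 contacts for members and 4.35 for other shared loops in APH, and 10.2 and 3.55 in DMSO. Since the rule used the count itself, the part of this background in the span was not tested. The members' median span was below that of the others on 17 of the 18 chromosomes with at least 5 members.

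**Figure D2:**
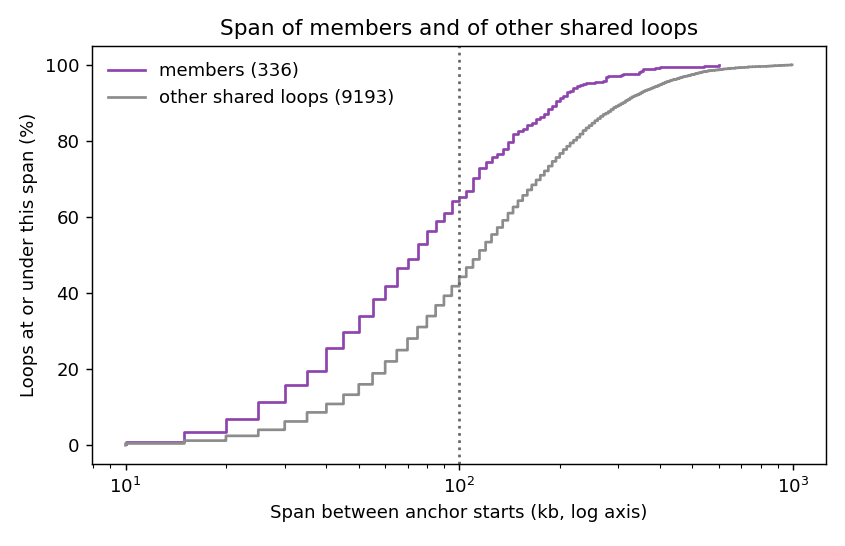
Cumulative share of loops (vertical axis, percent) by span (horizontal axis, kb on a log scale) for the 336 members and the 9193 other shared loops, with 100 kb dotted. The curve of the members lies to the left: 64.3% of members and 41.8% of the others were under 100 kb.

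The 3 shortest members spanned 10 kb, the lower bound of the lists. One ran from ACY3, which encodes an aminoacylase, to a bin 2.15 kb from ALDH3B2 and had 166 contacts in APH, 147 in DMSO, 140 in HU and 151 in H2O. The others lay within LDLRAD4, with 91, 78, 79 and 86 contacts, and within DSCAML1, a neuronal adhesion molecule, with 103, 76, 95 and 76. At the far end, a 540 kb loop ended on CCND1, which encodes cyclin D1, and had 75 contacts in APH, 85 in DMSO, 89 in HU and 103 in H2O. A 400 kb loop ended on PDZRN3, a ubiquitin ligase, and had 80 contacts in APH, 94 in DMSO, 80 in HU and 90 in H2O. Both of these long loops had fewer contacts in APH than in DMSO, although APH had the highest list total.

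Set against the other shared loops, fewer members stood on a gene with an anchor, and at like spans up to 100 kb more framed a single whole gene between their anchors. At least 1 anchor overlapped a protein-coding gene in 73.2% of members (68.1% to 77.9%), against 81.0% of the other shared loops (80.1% to 81.8%), and both anchors did so in 31.3% (26.3% to 36.5%) against 37.4% (36.4% to 38.4%). Neither anchor touched a gene in 26.8% of members (22.1% to 31.9%), against 19.05% of the others (18.2% to 19.9%). The intervals overlap narrowly for both anchors and not at all for the other shares. Within each span class the share with at least 1 anchor on a gene was also lower in members. The intervals were apart only at 50 to under 100 kb, at 72.4% (63.3% to 80.3%) against 84.4% (82.9% to 85.7%), and overlapped in the other classes. A promoter window lay in an anchor for 24.1% of members (19.6% to 29.0%), an interval that includes the 22.9% found for the others.

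At least 1 whole gene lay between the anchors of 52.4% of members (46.9% to 57.8%), against 48.3% of the others (47.3% to 49.4%), where the intervals overlap, but longer loops have more room for genes and members were short. Among loops of 50 to under 100 kb, 69 of 116 members, or 59.5% (49.97% to 68.5%), enclosed at least 1 whole gene, against 40.8% (38.9% to 42.7%) of the other shared loops of that span. Exactly 1 gene was enclosed by 48.3% (38.9% to 57.7%) of these members, against 26.2% (24.5% to 27.9%) of the others. Under 50 kb the shares with at least 1 whole gene were 33.0% (23.9% to 43.1%) and 21.7% (19.4% to 24.1%), where the intervals touch. The shares with exactly 1 gene were 30.0% (21.2% to 40.0%) and 16.8% (14.7% to 18.99%) under 50 kb, and at 100 to under 250 kb they were 35.6% (26.4% to 45.6%) and 29.9% (28.5% to 31.4%), where the intervals overlap. Over all spans, 130 of 336 members enclosed exactly 1 gene, which is 38.7% (33.5% to 44.1%), against 28.1% (27.2% to 29.0%) of the others. The intervals treat loops as independent, though some share an anchor. With 1 loop per place the share of members of 50 to under 100 kb with a whole gene inside was 59.8%, and with a threshold of 60 contacts it was 52.1% (45.2% to 59.0%).

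**Figure D3:**
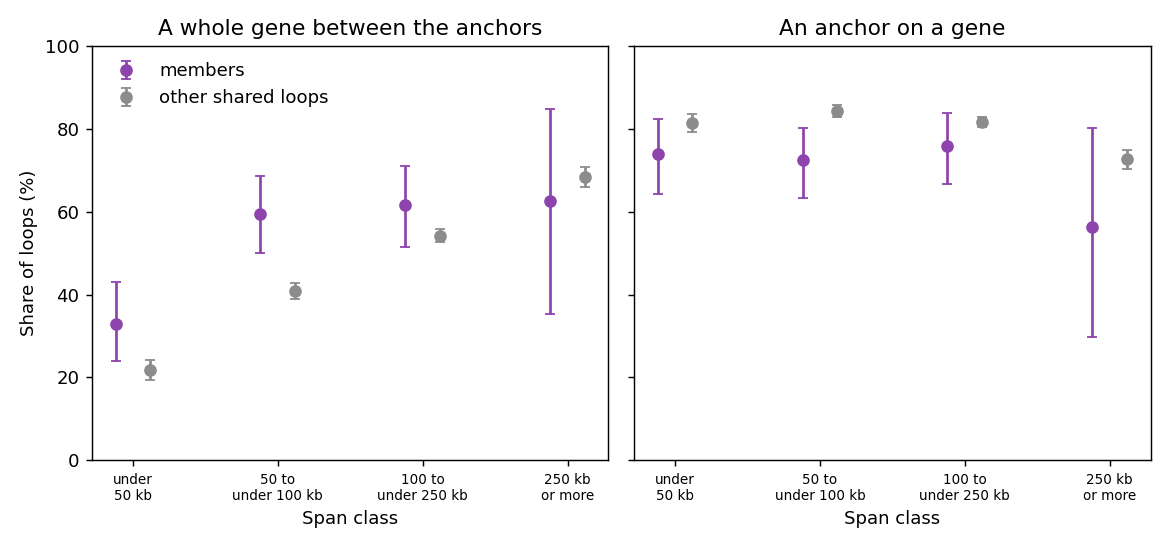
Share of loops (vertical axis, percent, with 95% exact binomial intervals) with a whole protein-coding gene between the anchors (left) and with at least 1 anchor on a gene (right), by span class, for members and for the other shared loops. At 50 to under 100 kb the members stand at 59.5% against 40.8% on the left, and at 72.4% against 84.4% on the right.

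Genes that sat alone inside a member included several of lymphocytes and of inflammation, picked here by their known roles after their values had been seen. IRF8, a transcription factor of B cell and myeloid development, was framed by loops of 165 and 195 kb that share a left foot on chromosome 16. The shorter had 170 contacts in APH, 149 in DMSO, 142 in HU and 159 in H2O, and the longer 178, 169, 138 and 177. SCIMP, an adaptor protein of antigen-presenting cells, lay in a 40 kb loop with 198 contacts in APH, 154 in DMSO, 148 in HU and 177 in H2O. LAPTM5, a lysosomal protein of leukocytes that lowers antigen receptor levels, lay in a 60 kb loop with 171, 110, 124 and 150. BCL3, an atypical IkB protein that works with NF-kB subunits, lay in a 50 kb loop with 177, 123, 140 and 124. In all 5 loops APH, which also had the highest list total, had the highest count. No interval of APH over DMSO excluded a ratio of 1. The longer IRF8 loop was lower in HU, with a HU over H2O log2 ratio of -0.34 (-0.67 to -0.01). Its HU over DMSO ratio was -0.39 (-0.73 to -0.06). For the shorter IRF8 loop these ratios were -0.15 (-0.48 to 0.19) and -0.17 (-0.51 to 0.17).

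Framing was not limited to genes of the B cell lineage. CD2, a T and natural killer cell adhesion receptor, lay alone in an 80 kb loop with 135 contacts in APH, 91 in DMSO, 102 in HU and 90 in H2O. GZMB, the cytotoxic protease granzyme B, lay in a 70 kb loop with 104, 77, 94 and 90, and CYBB, a subunit of the phagocyte oxidase, in an 80 kb loop on chromosome X with 131, 97, 110 and 101. HAND1 and NEUROD4, factors of heart and neural development, and the potassium channel genes KCNA5 and KCNA1 were framed in the same way. HiChIP contacts measure no expression, so whether any of these genes was active is not known from these data.

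Few genes of the lists chosen by name were at member anchors, and few protein-coding genes of any kind were. The lists are short, so their small counts are a description only. Of all 19974 protein-coding genes, 325 (1.63%) overlapped a member anchor and 223 (1.12%) lay whole inside a member. None of 26 B cell identity genes was at a member anchor, and 2 lay inside: IRF8, and POU2AF1, the B cell coactivator of octamer factors, whose 140 kb loop had 132 contacts in APH, 117 in DMSO, 107 in HU and 143 in H2O. None of 14 T cell genes and 1 of 12 myeloid and erythroid genes was at an anchor. That gene was SPI1, which encodes the factor PU.1, used in B cells as well as in myeloid cells, in a 35 kb loop to SLC39A13 with 194, 142, 147 and 161 contacts in APH, DMSO, HU and H2O. The label of a B lymphoblastoid line could not be checked further from loops alone.

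Of 20 NF-kB and virus responsive genes, 2 were at anchors and 1 lay inside. TNFAIP3, which encodes A20, an inhibitor of NF-kB signalling, anchored a 160 kb loop with 106 contacts in APH, 86 in DMSO, 97 in HU and 86 in H2O. Its anchor holds the promoter printed above. CCR7, a chemokine receptor induced by Epstein-Barr virus, anchored a 35 kb loop with 141, 142, 120 and 169 contacts, and its HU over H2O log2 ratio was -0.48 (-0.83 to -0.13), against 0.13 (-0.20 to 0.47) for H2O over DMSO. Its HU over DMSO ratio was -0.34 (-0.71 to 0.02), an interval that includes 0. The APH over DMSO ratio of this loop was -0.34 (-0.68 to 0.01), and APH over H2O was -0.47 (-0.81 to -0.14). A low ratio was thus not particular to HU. CCL22, a chemokine that attracts T cells, lay in a 115 kb loop with CX3CL1 and had 199 contacts in APH, 132 in DMSO, 153 in HU and 154 in H2O.

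Of 18 p53 and DNA damage genes, CDKN1A was at an anchor and BTG2 lay inside. CDKN1A encodes the cell cycle inhibitor p21. Its 60 kb loop had 125 contacts in APH, 107 in DMSO, 81 in HU and 120 in H2O, so HU was the lowest library. The log2 ratio was -0.55 (-0.98 to -0.13) for HU over H2O and -0.50 (-0.94 to -0.07) for HU over DMSO. For APH over DMSO it was -0.10 (-0.49 to 0.28). BTG2, an antiproliferative p53 target, lay alone in a 65 kb loop with 106, 106, 94 and 76 contacts in APH, DMSO, HU and H2O, where the log2 ratio of H2O over DMSO, at -0.60, was larger in size than the -0.33 of APH over DMSO and the 0.32 of HU over H2O.

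Of 29 replication and checkpoint genes, PCNA was at an anchor and CHEK2 lay inside a member. PCNA, the sliding clamp of DNA polymerases, shares its anchor with the promoter of CDS2 in a 65 kb loop with 126 contacts in APH, 91 in DMSO, 117 in HU and 129 in H2O. CHEK2, a checkpoint kinase, lay in a 225 kb loop together with CCDC117, HSCB and XBP1, a factor of plasma cell secretion, with 87, 84, 80 and 78 contacts. No gene of the lists of 18 cohesin, regulator and CTCF genes, 28 ribosomal protein genes, 19 antigen presentation genes or 18 HOX genes was at an anchor of a member or inside one.

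Promoters stood at both feet of 8 members, or 2.38% (1.03% to 4.64%), against 1.89% (1.62% to 2.19%) of the other shared loops. These shares are near each other, so the count shows nothing about the members as a set. PPARD, a nuclear receptor, faced FANCE, a Fanconi anaemia protein of DNA crosslink repair, over 110 kb with 122 contacts in APH, 93 in DMSO, 100 in HU and 101 in H2O. TINF2, a shelterin protein of telomeres, faced DHRS1 and NOP9 over 55 kb with 120, 93, 98 and 140, and its log2 ratio was -0.50 (-0.89 to -0.12) for HU over H2O and 0.47 (0.08 to 0.87) for H2O over DMSO. GNG8 faced DACT3 over 25 kb with 133, 108, 182 and 144, where HU was the highest library. The other promoter pairs were NR6A1 with WDR38, NDUFB7 with ZNF333, PPCDC with C15orf39, start sites within TMCC2, and HOOK2 with a bin that holds start sites of HOOK2 and JUNB. Their counts over the libraries ran from 75 to 145.

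Members were uneven across the genome. Chromosome 1 held 63 and chromosome 19 held 35, which were 5.30% (4.10% to 6.73%) and 6.55% (4.61% to 8.998%) of the shared loops of those chromosomes. Chromosome 4 held 2 of 311, or 0.643% (0.0780% to 2.30%). Chromosome 21 held 0 of 77, for which the interval reaches 4.68%. Chromosomes 17 and 12 held 32 and 26 members.

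For the comparison of libraries, each count was divided by its library's total over the 9529 shared loops and the log2 ratio was taken. Over the members the median was 0.01 for APH over DMSO, 0.03 for HU over H2O and -0.03 for H2O over DMSO. The pooled ratios were 0.01 (-0.01 to 0.03), 0.01 (-0.01 to 0.03) and -0.03 (-0.05 to -0.01). The strongest loops as a group thus held nearly the same share of contacts in both drug libraries as in their solvents. The rule asks for a high count in every library and so limits how far any member can differ. Scaling by all listed loops instead gave medians of -0.37, 0.08 and -0.27, because the lists differ in length, and the values below are relative to the shared loops.

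The spread was wider between drug and solvent than between solvents. The standard deviation of the members' log2 ratios was 0.27 for HU over H2O, where counting error alone gives 0.19, and 0.23 for APH over DMSO, where it gives 0.19. For H2O over DMSO it was 0.20, the same as counting error gives. Over the other shared loops the standard deviation was 0.43 for HU over H2O, 0.41 for APH over DMSO and 0.37 for H2O over DMSO, where counting gives 0.41, 0.40 and 0.42. For the other loops the spread between the solvents was below the computed counting error, so members and other loops were not compared on that measure. A library's own make-up and its treatment cannot be told apart.

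A member was called when its log2 ratio was at least 0.5 in size and the 95% exact interval of the ratio excluded 1. For APH over DMSO 8 members were higher and 7 lower, or 2.38% and 2.08%, against 2.58% and 2.6% of all shared loops. For HU over H2O 12 were higher and 11 lower, or 3.57% and 3.27%, against 3.69% and 3.25%. For H2O over DMSO 1 was higher and 3 lower, or 0.298% and 0.893%, against 1.2% and 1.23%. The shares in the drug contrasts were near those of all shared loops and so show nothing about the members as a set. Under the scaling by all listed loops APH over DMSO gave 0 higher and 96 lower.

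The ratio was lower the longer the span in both drug contrasts, a trend that the shared loops as a whole also show. For APH over DMSO the pooled log2 ratio was 0.07 (0.04 to 0.11) in the 100 members under 50 kb, 0.05 (0.01 to 0.08) in 116 of 50 to under 100 kb, -0.05 (-0.08 to -0.01) in 104 of 100 to under 250 kb and -0.23 (-0.33 to -0.13) in 16 of 250 kb or more. For HU over H2O it was 0.09 (0.05 to 0.13), 0.03 (-0.01 to 0.06), -0.06 (-0.10 to -0.02) and -0.11 (-0.21 to -0.01). For H2O over DMSO it was -0.01, -0.04, -0.03 and -0.10, and the last (-0.20 to -0.01) is as low as in HU over H2O. The bin of 250 kb or more holds only 16 loops.

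Set as long members (100 kb or more) minus short ones, the log2 difference was -0.13 (-0.17 to -0.09) for APH over DMSO and -0.12 (-0.16 to -0.08) for HU over H2O. It was -0.01 (-0.05 to 0.04) for H2O over DMSO. With the solvents exchanged it was -0.12 for APH over H2O and -0.13 for HU over DMSO. The other shared loops gave -0.16 (-0.17 to -0.14) in both drug contrasts, so the members lay in the direction of the rest, with overlapping intervals.

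**Figure D4:**
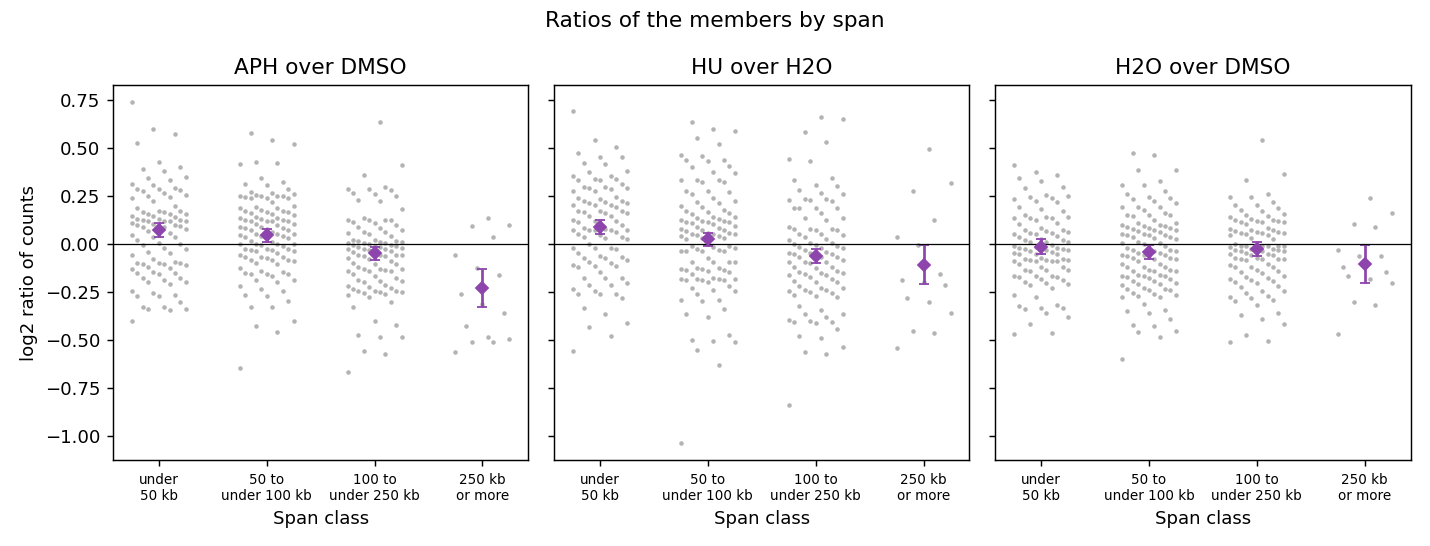
Log2 ratio of scaled counts (vertical axis) by span class for APH over DMSO, HU over H2O and H2O over DMSO; grey points are the 336 members, diamonds the pooled ratio with its 95% interval. The diamonds step down from 0.07 to -0.23 for APH over DMSO and from 0.09 to -0.11 for HU over H2O, and lie between -0.10 and -0.01 for H2O over DMSO.

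Members with a higher ratio in one drug contrast tended to have a higher ratio in the other. Across the 336 members the ratios of APH over DMSO and HU over H2O, which share no library, correlated with r = 0.341 (Pearson) and rho = 0.350 (Spearman), and 219 members (65.2%) had the same sign in both. Within span classes r was 0.301. With the solvents exchanged r was 0.422, and for APH over HU set against DMSO over H2O it was -0.098. These are correlations across loops, which share libraries, depth and span, and they have no p. The other shared loops gave 0.225 for the first of them. Their lower counts carry more counting error, which weakens a correlation, so members and other loops were not compared on it.

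Only 7 members had an interval excluding 1 in the same direction in both drug contrasts and a ratio larger in size than between the solvents. The 4 higher ones are 1.19% of members, against 0.567% of shared loops, and the 3 lower ones are 0.893%, against 0.357%. Their higher counts give narrower intervals than those of most shared loops, so the shares are not comparable as they stand. No member had intervals that excluded 1 in opposite directions in the drug contrasts. The share over all shared loops was not counted for this, so it shows nothing about the members as a set. Scaled by all listed loops, the APH over DMSO intervals of all 4 higher loops included no change. Their HU over H2O intervals, and both intervals of the 3 lower loops, still excluded it.

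The 1 of these 4 with the highest ratios starts on TSPAN15, a tetraspanin that guides the protease ADAM10, spans 120 kb on chromosome 10 (69515001 to 69640000) and encloses NEUROG3 and FAM241B. It had 205 contacts in APH, 105 in DMSO, 210 in HU and 135 in H2O, so both drug libraries lay above both solvent libraries. The log2 ratio was 0.64 (0.29 to 0.99) for APH over DMSO and 0.65 (0.33 to 0.98) for HU over H2O, against 0.25 (-0.13 to 0.63) for H2O over DMSO. Summed with the shared loops within 1 bin of both feet, which makes 4 loops, the counts were 323, 163, 295 and 198 and the ratios 0.66 and 0.59. Scaled by all listed loops, the APH over DMSO ratio of the single loop was 0.26 (-0.09 to 0.61).

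A 65 kb loop on chromosome 8 (37850001 to 37920000) around RAB11FIP1, an effector of the recycling GTPase Rab11, had 159 contacts in APH, 87 in DMSO, 131 in HU and 96 in H2O, with ratios of 0.54 (0.16 to 0.94) and 0.46 (0.07 to 0.86). Its H2O over DMSO ratio was 0.03, and summed with 2 neighbouring loops the drug ratios were 0.33 (0.04 to 0.62) and 0.27 (-0.04 to 0.58). A 25 kb loop on chromosome 12 (57210001 to 57240000) joins LRP1, an endocytic receptor, to COXFA4L2 around SHMT2, a mitochondrial enzyme of serine metabolism, and NXPH4. It had 233 contacts in APH, 146 in DMSO, 196 in HU and 153 in H2O, with ratios of 0.35 (0.04 to 0.66) and 0.37 (0.06 to 0.69). Summed with 2 neighbouring loops the APH over DMSO ratio was 0.13 (-0.09 to 0.34), while that of HU over H2O was 0.42 (0.19 to 0.64). The fourth is the 25 kb loop at COXFA4L3 among the strongest places, with ratios of 0.60 (0.35 to 0.85) for APH over DMSO and 0.34 (0.09 to 0.58) for HU over H2O. With the solvents exchanged they were 0.38 for APH over H2O and 0.56 for HU over DMSO, and summed with 2 neighbouring loops 0.42 (0.21 to 0.63) and 0.27 (0.07 to 0.47) for APH over DMSO and HU over H2O.

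Of the 3 lower loops, a 145 kb loop on chromosome 5 (154465001 to 154615000) around HAND1 had 172 contacts in APH, 181 in DMSO, 142 in HU and 190 in H2O. Its log2 ratio was -0.40 in both drug contrasts, with intervals from -0.71 to -0.09 and from -0.73 to -0.08, against -0.05 between the solvents. It was also below 0 with the solvents exchanged, at -0.35 for APH over H2O and -0.45 for HU over DMSO, and both intervals excluded 0. Summed with 3 neighbouring loops the ratios were closer to 0, at -0.28 (-0.52 to -0.05) for APH over DMSO and -0.26 (-0.51 to -0.01) for HU over H2O.

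A 55 kb loop on chromosome 12 ends on SH2B3 and ATXN2. SH2B3 encodes LNK, an adaptor that dampens cytokine receptor signalling in blood cells. The loop had 143 contacts in APH, 153 in DMSO, 109 in HU and 153 in H2O, with ratios of -0.43 (-0.76 to -0.09) and -0.47 (-0.84 to -0.11). APH over H2O was -0.31 (-0.65 to 0.03), and summed with 3 neighbouring loops APH over DMSO was -0.21 (-0.43 to 0.00). A 275 kb loop on chromosome 20 around CEBPB, a factor of myeloid differentiation and inflammation, had 137, 154, 91 and 134 contacts, with ratios of -0.50 (-0.84 to -0.16) and -0.54 (-0.94 to -0.15). The CEBPB loop also differed between the solvents by -0.32 (-0.66 to 0.03), and against H2O the APH ratio was -0.18 (-0.53 to 0.18). HU had the lowest count of the libraries in all 3 of these loops.

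**Figure D5:**
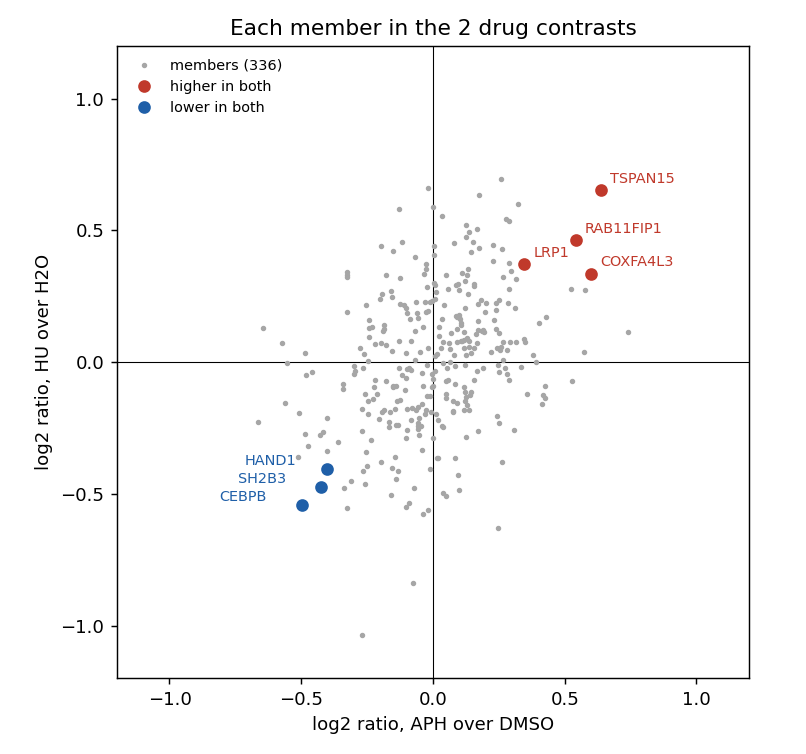
Log2 ratio of HU over H2O (vertical axis) against that of APH over DMSO (horizontal axis) for each of the 336 members, 1 point per loop. The 4 loops higher in both contrasts (named by a gene at or in the loop) lie at 0.35 to 0.64 and 0.34 to 0.65, and the 3 lower ones at -0.50 to -0.40 and -0.54 to -0.40.

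Outside those 7 loops, the highest APH over DMSO ratio was that of a 30 kb loop on chromosome 5 from FAM13B to a bin 7.37 kb from WNT8A. It had 195 contacts in APH, 93 in DMSO, 120 in HU and 112 in H2O, so that only APH stood apart. The ratio was 0.74 (0.38 to 1.11), and it was 0.59 against H2O. A 75 kb loop from UBE2L6, an enzyme that conjugates the interferon-induced modifier ISG15, to a bin beside YPEL4 encloses SERPING1, the C1 inhibitor of complement. It had 178 contacts in APH, 95 in DMSO, 128 in HU and 107 in H2O, with a ratio of 0.58 (0.21 to 0.95), or 0.31 (0.03 to 0.60) summed with 3 neighbouring loops, and its UBE2L6 promoter is printed above. The 45 kb loop around TMEM119 had 166, 89, 126 and 124 contacts and a ratio of 0.57, but 0.21 (-0.13 to 0.56) against H2O.

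Of the 6 lowest APH over DMSO ratios, 3 belonged to loops of 240 kb or more. A 200 kb loop around RHOB, a small GTPase induced by DNA damage, had 80 contacts in APH, 101 in DMSO, 81 in HU and 96 in H2O, with a ratio of -0.66 (-1.11 to -0.23) and of -0.47 (-0.92 to -0.03) against H2O. A 355 kb loop around NEDD9, a scaffold of integrin signalling, had 89, 101, 81 and 105 contacts, with -0.51 (-0.94 to -0.08) and -0.45 against H2O. The loops on PDZRN3, between ARHGAP6 and MSL3, between PPCDC and C15orf39 and around GPR55 had ratios from -0.64 to -0.56, and against H2O all 4 intervals included 0. GPR55, a lipid receptor, had 114 contacts in APH, 142 in DMSO, 119 in HU and 110 in H2O, and its H2O over DMSO ratio was also low, at -0.49 (-0.86 to -0.12).

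The lowest ratio of any member was in HU over H2O, at a 90 kb loop on chromosome 8 (127210001 to 127305000) with no protein-coding gene at either foot or between them. Its feet overlap the non-coding genes CCAT1 and CASC21 with CASC8, in the region upstream of MYC, and the nearest protein-coding gene in the table was POU5F1B, 108 kb away. It had 153 contacts in APH, 147 in DMSO, 93 in HU and 193 in H2O. The log2 ratio was -1.04 (-1.41 to -0.67) for HU over H2O and -0.76 (-1.15 to -0.38) for HU over DMSO, against 0.28 (-0.04 to 0.60) for H2O over DMSO. With the 3 shared loops within 1 bin added, the counts were 379, 361, 270 and 425 and the HU over H2O ratio was -0.64 (-0.86 to -0.42). HU was thus the lowest library at this place under each of these readings, while APH over DMSO was -0.27 (-0.61 to 0.07).

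A 145 kb loop at FRMD4B had 113 contacts in APH, 95 in DMSO, 83 in HU and 150 in H2O. Its HU over H2O ratio was -0.84 (-1.24 to -0.44), but H2O itself was 0.54 (0.16 to 0.93) above DMSO, and HU over DMSO was -0.30 (-0.74 to 0.14). A 115 kb loop from CUX1, a homeobox factor, around SH2B2 and SPDYE6 had 142, 116, 83 and 125 contacts, with -0.57 in HU over H2O and -0.58 in HU over DMSO. A 170 kb loop ending on AGO2, the slicing Argonaute protein, had 129, 104, 75 and 112, with -0.56 and -0.57. In the CUX1 and AGO2 loops both solvents gave the same answer, and HU was the lowest library. The loops around PLEK, a substrate of protein kinase C in blood cells, and within CDH1, which encodes E-cadherin, had -0.63 and -0.55, and -0.37 and -0.31 against DMSO, where both intervals included 0.

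The highest HU over H2O ratio was at a 15 kb loop on chromosome 17 between KRT17 and EIF1, which touches no protein-coding gene. It had 129 contacts in APH, 86 in DMSO, 136 in HU and 85 in H2O, with a ratio of 0.69 (0.29 to 1.10), of 0.56 (0.16 to 0.97) against DMSO and of 0.26 (-0.15 to 0.67) for APH over DMSO. A 50 kb loop within DZIP1L, a protein of the ciliary transition zone, had 124, 79, 129 and 86 contacts, with 0.60 (0.20 to 1.01) and 0.61 against DMSO. The loops around IGFBP2, within POU2F3 and from near S100A6 to S100A2 had 0.66, 0.63 and 0.59, and against DMSO 0.19, 0.36 and 0.28, where the intervals included 0. In these 3 loops the H2O count was the lowest of the libraries.

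The threshold passed through a continuous range of counts. Just inside it were a 135 kb loop within TESK2 with 90 contacts in APH, 85 in DMSO, 75 in HU and 87 in H2O, a 30 kb loop within TMCC2 with 111, 80, 99 and 75, and a 35 kb loop from GNAT1 to GNAI2 with 115, 75, 115 and 96. Just outside it were a 25 kb loop on chromosome 1 with 107, 92, 74 and 98, a 30 kb loop on chromosome 2 with 103, 89, 80 and 74, and a 30 kb loop on DEF6 and ZNF76 with 106, 74, 77 and 92. There were 47 members with a minimum of 75 to 79 contacts and 69 shared loops with a minimum of 70 to 74. Which library set the minimum differed among these loops.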

How the data were processed

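SMC1 HiChIP of GM12878 cells gave 4 libraries, grouped by the treatment in the labels, with 1 library per group. Per the submitters' processing notes, the tools were bcl2fastq 2.17 and MACS3 3.0.1 and the build was hg38. Which aligner and which loop caller were used is not given in the sources used here. Headerless lists of called loops were deposited, so columns were read from their values: a deposited contact count per pair of 5 kb bins, not normalized and at least 12; a deposited expected count of a background model; a deposited adjusted p-value, not used here; and a cluster size and a summit mark. Lists hold only called loops, so read depth is unknown.

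The members, the named lists and the tests were chosen with earlier results of these data known. Counts were divided by the library's sum over the 9529 shared loops. Ratios have 95% exact conditional binomial intervals, shares have Clopper-Pearson intervals, and differences between long and short loops have a log-scale normal interval in place of the exact one planned, which took too long. All cover counting error only and may be too narrow, since reads without molecular identifiers are not independent. No p-value was computed. Genes and promoter windows came from RefSeq tables of GRCh38.p14, with 19974 protein-coding genes and windows for 15812 of them; no genome sequence was used. Named loops are the 12 places with the highest minimum count, the 6 highest and 6 lowest ratios in each drug contrast whose interval excludes 1 and whose size exceeds that of H2O over DMSO, members passing in both contrasts, the 3 shortest and 3 longest, the 5 anchors with most members, anchors on listed genes and the 3 loops on each side of the threshold. One loop that this rule names is not reported here. One promoter window per gene is printed. Python 3.11.15, numpy 2.4.6, pandas 2.3.3, scipy 1.17.1 and matplotlib 3.10.9 were used. The ratio intervals were tested on simulated counts, and the joining into places and the long minus short calculation on small made-up examples. The other steps were not tested in this way.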

Additional observations from a re-analysis of the deposited data

How the results depend on the processing

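A threshold of 60 contacts gave 614 members in 561 places, and one of 100 gave 142 in 137; on scaled counts 365 passed, of which 328 were among the members described. At a threshold of 100, 70% of members of 50 to under 100 kb enclosed a whole gene, and 54.2% without chromosome 1 and 58.4% without chromosome 19; these alternatives were chosen after seeing the data. With promoter windows in place of gene bodies, 24.1% of members had a gene at 1 anchor and 2.38% at both, and with anchors widened by 5 kb 86.6% and 47.3%, which follows from the smaller and larger windows. The median log2 ratio for APH over DMSO was -0.37 when scaled by all listed loops, -0.0408 from observed over expected counts, 0.0354 at a threshold of 100 and 0.0482 against the other solvent. For HU over H2O these medians were 0.0753 by all listed loops, 0.00285 from observed over expected counts, -0.00556 at a threshold of 60 and -0.0205 against the other solvent, and H2O over DMSO was -0.27 by all listed loops. Scaling by all listed loops moves these values by construction, since the lists differ in length; the cause of the other shifts was not tested.

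For APH over DMSO, 0 members were higher and 96 lower by all listed loops, 4 higher relative to the span class, 4 higher and 4 lower against the other solvent, and 17 and 17 at a log2 ratio of 0.3. For HU over H2O, 7 were lower by all listed loops, and 29 were higher and 29 lower at 0.3. For H2O over DMSO, 0 were higher and 44 lower by all listed loops, and 6 and 12 at 0.3. Long minus short was -0.0808 for APH over DMSO at a threshold of 100, and 0.0845 for H2O over DMSO from observed over expected counts. Among named loops, the LRP1 loop had -0.0303 for APH over DMSO by all listed loops, a turned direction. Of 34 named ratios, the highest and lowest in each drug contrast and those of the loops passing in both, no other turned its direction in these alternatives. Among the remaining named loops, APH over DMSO ratios whose intervals included 0 changed sign against H2O at FGR (0.07), GREB1 (-0.06) and PCNA (-0.25), for example. Of the 34 ratios, 13 had an interval that included 0 against the other solvent, 7 by all listed loops and 4 when summed with loops within 1 bin. The 7 by all listed loops were every APH over DMSO ratio above 0 among the 34, including those of the 4 loops higher in both drug contrasts. Summing also moved the HU over H2O ratio to -0.37 for the CUX1 loop and 0.36 for the S100A2 loop, and the APH over DMSO ratio to 0.23 for the TMEM119 loop.

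No paired analysis was possible because each group holds 1 library. Without replicates, library and treatment cannot be told apart. The counting error of about 0.2 on the log2 scale per loop is a standard deviation and not a limit of detection. The intervals of single loops reached further than this. For the CCR7 loop an APH over DMSO ratio of -0.34 had an interval that included no change (-0.68 to 0.01). For the longer IRF8 loop a HU over H2O ratio of -0.34 had one that narrowly excluded it (-0.67 to -0.01).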

Other observations

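Several members framed a gene known for rapid induction by stress or signals, picked by role after the values had been seen. JUNB, an AP-1 subunit, lay alone in a 20 kb loop with 185 contacts in APH, 124 in DMSO, 144 in HU and 171 in H2O. This loop is in 1 place with a 15 kb member from the same HOOK2 bin to the bin with the JUNB start site. Both together had 318 contacts in APH, 239 in DMSO, 266 in HU and 261 in H2O, so the values of the 20 kb loop alone are only part of this place. ZFP36, which destabilises cytokine mRNA, lay in a 15 kb loop with 114, 91, 100 and 86, and IER5, an early response gene, in a 60 kb loop with 127, 93, 100 and 112. DUSP1, a MAP kinase phosphatase, lay in a 220 kb loop with 93, 103, 80 and 101, and KLF2, a factor of lymphocyte quiescence, in a 135 kb loop with 102, 102, 88 and 78. The log2 ratio of APH over DMSO was 0.25 (-0.09 to 0.59) for JUNB, -0.33 (-0.74 to 0.08) for KLF2 and -0.48 (-0.90 to -0.06) for DUSP1. For DUSP1 it was -0.33 (-0.75 to 0.09) against H2O. The JUNB and KLF2 loops also differed between the solvents, by 0.35 and -0.50 in H2O over DMSO.

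Metabolic and growth genes were framed as well. SLC7A5, a large neutral amino acid transporter, lay alone in a 95 kb loop with 187 contacts in APH, 158 in DMSO, 161 in HU and 166 in H2O. NOTCH1, a receptor of cell fate decisions, lay in a 145 kb loop with 173, 144, 168 and 145. TXNIP, an inhibitor of thioredoxin, lay in a 30 kb loop with 151, 108, 132 and 140. ETV3, a repressor of the ETS family, lay in a 65 kb loop with 171, 125, 163 and 115, and was the one of these 4 with a HU over H2O log2 ratio above 0.5, at 0.52 (0.17 to 0.88). Its H2O over DMSO ratio was -0.24, and its HU over DMSO ratio was 0.28 (-0.06 to 0.63), an interval that includes 0.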
